A study of Mus musculus with 9 samples.

Results

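The genes described here are 9 transcription factors that act in blood cell formation: Spi1 (PU.1), the C/EBP family members Cebpa, Cebpb, Cebpd, Cebpe and Cebpg, Gfi1, Irf8 and Fli1. They were taken by gene symbol from a table of read counts, where they make up 9 of 24391 gene rows, and all 9 passed the filter on low counts that left 12573 genes for testing. The table holds 9 RNA-seq libraries of bone marrow cells from C57BL/6 mice aged 6-8 weeks with AML1-ETO9a leukaemia, a model driven by a short splice form of the fusion between AML1 (RUNX1) and ETO (RUNX1T1). The cells had been sorted by surface CD43, a leukocyte sialoglycoprotein, and c-Kit, the stem cell factor receptor of progenitors, into CD43++ckit+, CD43+ckit- and CD43-ckit- cells, with 3 libraries each. All 3 populations carry the leukaemia, so none is a healthy control. The labels do not state whether a population's libraries came from different mice. The p-values therefore describe the scatter of these libraries, which may be technical.

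PU.1 and FLI1 are ETS-family factors: PU.1 is needed for macrophages, granulocytes and B cells, and FLI1 for megakaryocytes. C/EBP proteins bind DNA as basic leucine zipper dimers, with C/EBPα starting the granulocyte programme from progenitors and C/EBPε acting later, when secondary granules form. GFI1 is a zinc finger repressor that neutrophil development needs, IRF8 directs monocyte and dendritic cell fate, and AML1-ETO is known to lower C/EBPα and to bind PU.1.

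RefSeq promoter entries on the GRCm38.p6 build matched 5 of the 9 genes (Cebpa, Cebpb, Cebpg, Gfi1 and Irf8). The 250 bases before the transcript start are shown for Cebpa and Irf8, whose transcripts varied together between libraries, and for Cebpg, whose transcript varied least. Cebpg lies beside Cebpa on chromosome 7 with 0 protein-coding genes between them. Capitals mark matches to 5 motifs searched on both strands: the TATA box TATAAA, the CCAAT box (ATTGG on the other strand), the STAT-type TTCNNNGAA, the PU.1-type core GAGGAA and the C/EBP-type TTGCNNAA. The Cebpa stretch is chr7:35119043-35119292 on the plus strand, the Irf8 stretch chr8:120736108-120736357 on the plus strand and the Cebpg stretch chr7:35056567-35056816 on the minus strand, each written 5′ to 3′ along the gene.
Cebpa: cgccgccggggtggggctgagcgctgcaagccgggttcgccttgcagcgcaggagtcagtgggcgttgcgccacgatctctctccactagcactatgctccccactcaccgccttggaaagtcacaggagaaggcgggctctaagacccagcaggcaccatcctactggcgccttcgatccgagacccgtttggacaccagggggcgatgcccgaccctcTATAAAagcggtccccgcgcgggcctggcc
Irf8: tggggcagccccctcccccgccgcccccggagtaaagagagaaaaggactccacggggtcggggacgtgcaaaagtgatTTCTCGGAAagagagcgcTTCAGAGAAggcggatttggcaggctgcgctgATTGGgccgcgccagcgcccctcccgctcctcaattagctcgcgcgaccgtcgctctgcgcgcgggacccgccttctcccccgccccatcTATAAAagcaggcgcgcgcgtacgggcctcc
Cebpg: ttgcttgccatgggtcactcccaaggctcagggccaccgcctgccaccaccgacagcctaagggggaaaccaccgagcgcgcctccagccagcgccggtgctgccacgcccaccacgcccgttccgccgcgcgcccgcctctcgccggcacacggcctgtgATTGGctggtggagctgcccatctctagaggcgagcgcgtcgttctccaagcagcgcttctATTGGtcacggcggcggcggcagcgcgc
The Cebpa stretch held TATAAA beginning 30 bases before the start and the Irf8 stretch held it 31 bases before. The Cebpg stretch had no such match. The entries of Cebpb and Gfi1, which varied like Cebpa and Irf8, had no TATAAA match either. The same Irf8 stretch also held TTCNNNGAA, the palindrome that STAT factors bind, at 171 and 153 bases before the start, and ATTGG at 121. A second Irf8 entry, chr8:120738389-120738638 on the plus strand, held 0 matches to the 5 motifs and is not shown. Cebpg held ATTGG at 89 and 28 bases before the start. The letters GAGGAA and TTGCNNAA were not found in these 3 stretches, while 1 Gfi1 entry held TTGCNNAA at 143 bases before the start. Of 32851 RefSeq promoter entries of the same length, 12.4% held TATAAA, 33.8% CCAAT, 7.02% TTCNNNGAA, 23.3% GAGGAA and 9.56% TTGCNNAA on either strand. A match describes these letters and does not show a bound site, and the build that the counts were made on is not given in the sources used here.

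Levels are given as CPM (counts scaled to a common library size) after TMM scaling, and total counts ranged from 17966197 to 31781746 per library. Kit and Spn, the genes of c-Kit and CD43, were highest in the 3 CD43++ckit+ libraries (Kit 146.0 to 175.5 CPM, Spn 431.7 to 555.2 CPM). The other populations overlapped in both genes. Kit had 7.80 to 21.0 CPM for CD43+ckit- and 18.9 to 42.1 CPM for CD43-ckit-. Spn had 137.2 to 232.5 CPM for CD43+ckit- and 71.7 to 180.1 CPM for CD43-ckit-. The labelled bone marrow cells held little of the pan-leukocyte gene Ptprc (1.83 to 26.3 CPM for CD43++ckit+, 6.83 to 17.2 CPM for CD43+ckit- and 36.1 to 95.4 CPM for CD43-ckit-). Erythroid genes were abundant. Their 9 markers summed to 1642 to 2381 CPM for CD43++ckit+, 13890 to 16220 CPM for CD43+ckit- and 29480 to 46310 CPM for CD43-ckit-. The globins among these markers were nearly absent, with Hbb-bt listed at 0 throughout and Hba-a1 at 0 to 0.314 CPM. Neutrophil genes differed most within a population. The 12 of 13 neutrophil markers with a row were above 0 in every library and summed to 358.5, 96.6 and 6119 CPM for CD43++ckit+ libraries 1, 2 and 3, to 495.0, 3774 and 3015 CPM for CD43+ckit-, and to 3890, 16790 and 17440 CPM for CD43-ckit-. The libraries that correlated least with the rest of their population were CD43++ckit+ 3, CD43+ckit- 1 and CD43-ckit- 1. In bulk RNA, fewer cells of a type and less RNA per cell cannot be told apart.

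The 9 factors fell into 2 groups by how far they varied, a division made after their values were seen. Spi1, Cebpg and Fli1 stayed at 8.24 CPM or more in every library, with a ratio of highest to lowest library between 1.66 and 6.18. Cebpa, Cebpb, Cebpd, Cebpe, Gfi1 and Irf8 spanned ratios from 26.5 (Cebpb) to 143.6 (Gfi1). Within CD43++ckit+ alone these 6 spanned ratios of 7.95 to 114.5, against 1.35 to 1.68 for the other 3, with library 3 the highest for each of the 6. The 15 pairs among the 6 correlated at 0.85 to 0.98 across the 9 libraries (Pearson, log2 CPM). Spi1 correlated with them at 0.88 to 0.92, Fli1 at -0.38 to 0.03 and Cebpg at -0.60 to -0.30. These correlations are descriptions over points that share library and scaling.

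**Figure D1:**
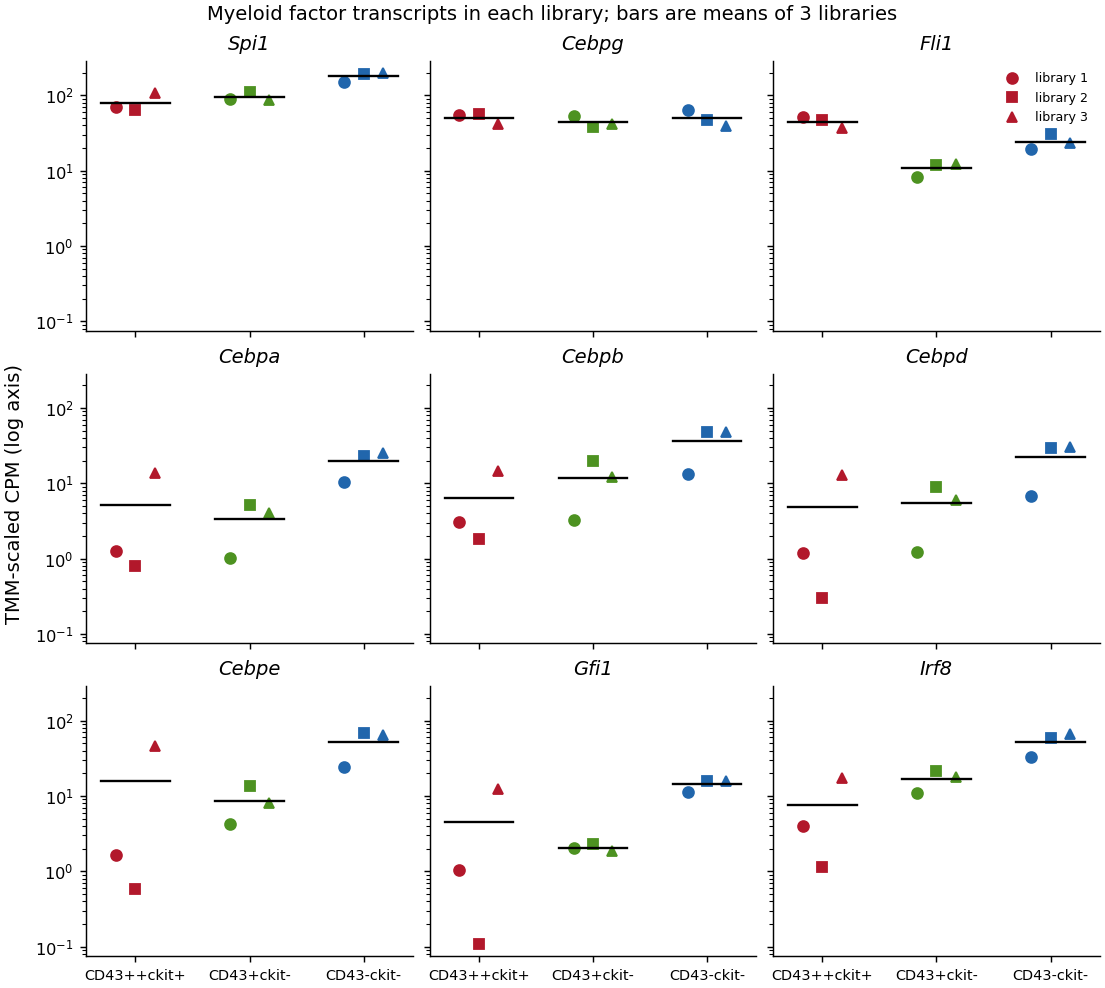
TMM-scaled CPM on a log axis for each factor in the 3 libraries of CD43++ckit+, CD43+ckit- and CD43-ckit- cells, with bars at population means. Spi1, Cebpg and Fli1 (top row) stay within a ratio of 6.18, while in the other 6 panels library 3 of CD43++ckit+ lies far above libraries 1 and 2.

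Few of the 9 factors passed the test between populations (edgeR quasi-likelihood, Benjamini-Hochberg adjusted p under 0.05 over all tested genes). In CD43++ckit+ against CD43+ckit- cells 1 of 9 was called, where 39.8% of all tested genes were. Against CD43-ckit- cells CD43++ckit+ cells differed in 4 of 9, where 67.4% of all genes were called, and CD43+ckit- cells differed from CD43-ckit- cells in 2 of 9, where 51.9% were. The fit shares the spread of each gene over the 3 populations. Scatter among CD43++ckit+ libraries thus also enters the p-values of CD43+ckit- against CD43-ckit- cells. Libraries did not overlap for 1, 3 and 6 of the 9 in these 3 comparisons, against 55.5%, 73.2% and 64.3% of all genes. In the joint test of the 3 populations Fli1, Spi1 and Irf8 were called, 3 of 9, where 74.8% of all genes were. Library totals ended the joint calls of Spi1 (adjusted p = 0.540) and Irf8 (0.151), and testing with no low-count filter ended that of Irf8 (0.0953). The comparisons share libraries pairwise and are not independent. Of all tested genes, 19.7% were higher and 20.1% lower in the first comparison, 39.7% and 27.7% in the second, and 31.0% and 20.9% in the third. Scaling by library totals in place of TMM moved the median log2 fold change of all tested genes by 0.27, 0.91 and 0.65 in the same 3 comparisons, and DESeq2 size factors moved it by -0.04, -0.24 and -0.20. With library totals 2, 2 and 1 factors were called, where 41.7%, 74.7% and 64.1% of all genes were, with 27.9% higher and 13.8% lower, 61.4% and 13.3%, and 54.6% and 9.47%. DESeq2 size factors gave 22.3% higher and 26.3% lower in the third comparison.

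Without library 3 of CD43++ckit+, the library with the high neutrophil gene sum, 7 of 9 factors were called in CD43++ckit+ against CD43+ckit- cells, 6 of them lower, where 46.3% of all genes were called. Against CD43-ckit- cells the count was then 8 of 9, 7 of them lower, where 74.5% of all genes were called. Fli1 was the 1 higher factor in both. CD43+ckit- against CD43-ckit- cells gave 7 of 9, all lower, where 61.0% of all genes were called. When these 2 populations were fitted alone with the library number as a block, 8 of 9 were lower in CD43+ckit- cells, Cebpg being the exception, where 67.2% of all genes were called. That blocked fit has 2 residual degrees of freedom and leans on the spread of all genes. The library numbers also do not tell libraries 2 and 3 apart. Its very small adjusted p-values for single factors, given below, therefore do not measure the strength of a difference. The same 2 populations without blocks gave 6 of 9, where 54.1% of all genes were called, and CD43++ckit+ and CD43-ckit- cells alone gave 2 of 9, where 63.5% were. When each population lost its least correlated library, 8, 9 and 7 factors were called in the 3 comparisons, where 67.6%, 81.9% and 70.2% of all genes were. Library 3 of CD43++ckit+ was singled out after its values were seen, and the least correlated libraries were picked from these same counts. The p-values after these omissions, here and for single factors below, describe how calls depend on those libraries. They are not separate support for a difference.

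**Figure D2:**
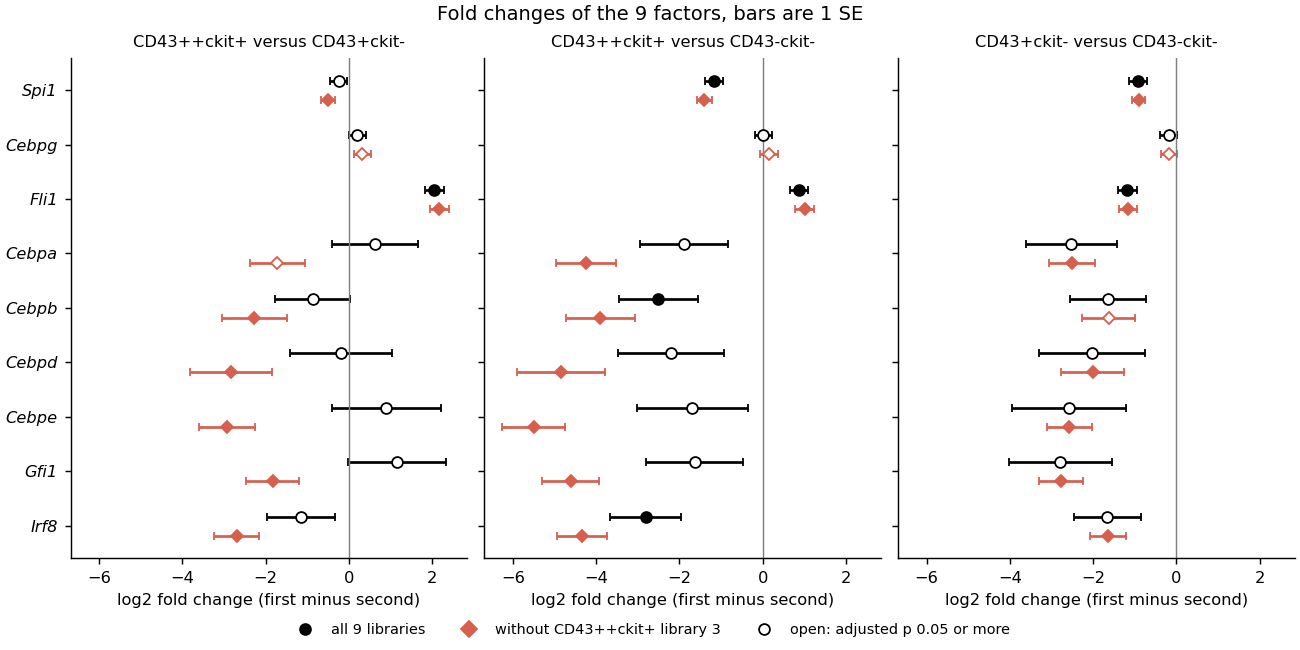
Log2 fold changes (first-named minus second-named population, bars 1 SE) of the 9 factors in the 3 comparisons, with all 9 libraries (black circles) and without CD43++ckit+ library 3 (red diamonds). Filled symbols passed an adjusted p under 0.05. In the comparisons of CD43++ckit+ cells the 6 variable factors move to the left without that library, while Spi1, Cebpg and Fli1 stay near their place.

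Spi1, which encodes PU.1, was the most abundant of the 9 per kilobase of exon in each population, with 29.6 ± 8.52 CPM per kb in CD43++ckit+, 35.1 ± 4.71 in CD43+ckit- and 66.2 ± 9.46 in CD43-ckit- cells (mean ± SD, n = 3). Its level was 70.4, 63.0 and 106.0 CPM for CD43++ckit+, 88.5, 109.2 and 86.2 CPM for CD43+ckit-, and 149.1, 190.5 and 195.6 CPM for CD43-ckit- libraries. The CD43-ckit- libraries were thus the 3 highest, and the other 2 populations overlapped. Spi1 was lower in CD43++ckit+ cells than in CD43-ckit- cells (log2 fold change -1.16 ± 0.21 SE, edgeR adjusted p = 0.00112) and lower in CD43+ckit- cells than in CD43-ckit- cells (-0.92 ± 0.21, adjusted p = 0.00648). CD43++ckit+ against CD43+ckit- cells gave -0.25 ± 0.21 (adjusted p = 0.394), and without library 3 of CD43++ckit+ -0.50 (adjusted p = 0.0411). Both calls were lost when library totals replaced TMM, with -0.25 (adjusted p = 0.415) for CD43++ckit+ and -0.29 (adjusted p = 0.356) for CD43+ckit- against CD43-ckit- cells.

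Fli1, the ETS factor of megakaryocyte genes, was highest in CD43++ckit+ cells. It stood at 50.9, 46.4 and 36.8 CPM for CD43++ckit+, at 8.24, 11.9 and 12.1 CPM for CD43+ckit- and at 19.3, 30.5 and 23.3 CPM for CD43-ckit- libraries. No 2 populations overlapped, with CD43++ckit+ highest and CD43+ckit- lowest. Fli1 was higher in CD43++ckit+ cells than in CD43+ckit- cells by 2.05 ± 0.23 (log2, SE; edgeR adjusted p = 0.000415) and higher than in CD43-ckit- cells by 0.87 ± 0.22 (adjusted p = 0.00682). It was lower in CD43+ckit- cells than in CD43-ckit- cells (-1.18 ± 0.23, adjusted p = 0.00267). With library totals the second difference was 1.76 (adjusted p = 0.000279) and the third lost its call (-0.55, adjusted p = 0.0992). Leaving out any single library changed none of the 3 Fli1 calls.

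The ratio of Spi1 to Fli1 counts within a library does not depend on scaling. On the log2 scale it was 0.47, 0.44 and 1.53 for CD43++ckit+, 3.42, 3.19 and 2.83 for CD43+ckit-, and 2.95, 2.64 and 3.07 for CD43-ckit- libraries. Every CD43++ckit+ library lay below all 6 others, and library 3 was the closest to them. The mean difference was -2.34 between CD43++ckit+ and CD43+ckit- cells and -2.07 between CD43++ckit+ and CD43-ckit- cells, each with a 2-sided exact permutation p = 0.1, the smallest that 3 against 3 libraries allow. CD43+ckit- and CD43-ckit- cells differed by 0.26 (exact permutation p = 0.3). Over the 18 ratio comparisons made, adjusted permutation p-values were 0.257 or more.

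Cebpa, which encodes the factor that starts granulocyte commitment, had 1.25, 0.793 and 13.6 CPM for CD43++ckit+, 1.01, 5.13 and 4.04 CPM for CD43+ckit-, and 10.5, 23.1 and 25.0 CPM for CD43-ckit- libraries. Library 3 of CD43++ckit+ lay above all CD43+ckit- libraries and above library 1 of CD43-ckit-, while libraries 1 and 2 lay with the lowest CD43+ckit- library. CD43+ckit- and CD43-ckit- libraries did not overlap. With all libraries no comparison passed: CD43++ckit+ cells gave 0.63 ± 1.04 (log2, SE; edgeR adjusted p = 0.680) against CD43+ckit- and -1.90 ± 1.06 (adjusted p = 0.138) against CD43-ckit- cells, and CD43+ckit- against CD43-ckit- cells gave -2.52 ± 1.09 (adjusted p = 0.0811). Without CD43++ckit+ library 3 these became -1.72 (adjusted p = 0.0586), -4.23 (adjusted p = 0.000747) and -2.51 (adjusted p = 0.00479). The last comparison also passed without CD43++ckit+ library 2 (adjusted p = 0.0472), in a fit of these 2 populations alone (0.00891) and with same-numbered libraries as blocks (-2.72, adjusted p = 3.59e-29). DESeq2 gave Cebpa and Gfi1 no adjusted p.

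Cebpb, a C/EBP of emergency granulopoiesis and macrophages, had 3.02, 1.81 and 14.4 CPM for CD43++ckit+, 3.30, 19.7 and 12.1 CPM for CD43+ckit-, and 13.4, 47.9 and 47.7 CPM for CD43-ckit- libraries. All 3 populations overlapped, with library 1 of CD43-ckit- below CD43++ckit+ library 3. It was lower in CD43++ckit+ cells than in CD43-ckit- cells (-2.50 ± 0.94, log2 with SE, edgeR adjusted p = 0.0431). That call was lost without any one of 6 libraries, namely 1 or 2 of CD43++ckit+, 2 or 3 of CD43+ckit- and 2 or 3 of CD43-ckit-, where adjusted p lay between 0.0524 and 0.122. It was lost as well with library totals (adjusted p = 0.152), with no low-count filter (0.104) and in a fit of the 2 populations alone (0.0639), while without CD43++ckit+ library 3 it was -3.90 (adjusted p = 0.00249). Against CD43+ckit- cells CD43++ckit+ cells gave -0.87 ± 0.90 (adjusted p = 0.495), and -2.27 (adjusted p = 0.0396) without library 3. CD43+ckit- against CD43-ckit- cells gave -1.64 ± 0.91 (adjusted p = 0.158), and -1.80 (adjusted p = 1.19e-19) with same-numbered libraries as blocks.

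Cebpd, a C/EBP induced late in neutrophil maturation and in inflammation, had 1.20, 0.301 and 12.8 CPM for CD43++ckit+, 1.21, 9.05 and 6.06 CPM for CD43+ckit-, and 6.84, 29.1 and 30.6 CPM for CD43-ckit- libraries. Library 1 was the lowest of CD43+ckit- and of CD43-ckit-, library 3 was the highest of CD43++ckit+, and no 2 populations were apart. Differences were -0.18 ± 1.23 (log2, SE) between CD43++ckit+ and CD43+ckit- cells, -2.21 ± 1.27 between CD43++ckit+ and CD43-ckit- cells, and -2.03 ± 1.27 between CD43+ckit- and CD43-ckit- cells (edgeR adjusted p from 0.1502 to 0.928). Without CD43++ckit+ library 3 they were -2.84, -4.85 and -2.01 (adjusted p = 0.0415, 0.00278 and 0.0458). With same-numbered libraries as blocks Cebpd was lower in CD43+ckit- cells than in CD43-ckit- cells (log2 fold change -2.19, adjusted p = 2.43e-21).

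Cebpe, the C/EBP of secondary granule genes, had the widest values of the family in CD43++ckit+: 1.66, 0.575 and 45.7 CPM there, 4.20, 13.5 and 8.11 CPM for CD43+ckit-, and 24.0, 67.4 and 63.3 CPM for CD43-ckit- libraries. Library 3 of CD43++ckit+ was above every CD43+ckit- library and libraries 1 and 2 were below every one, so the direction of the mean rests on that library. With it CD43++ckit+ cells gave 0.90 ± 1.31 (log2, SE; edgeR adjusted p = 0.637) against CD43+ckit- cells. Without it the value was -2.93 (adjusted p = 0.00827). Against CD43-ckit- cells CD43++ckit+ cells gave -1.69 ± 1.33 (adjusted p = 0.276), and -5.50 (adjusted p = 0.000240) without that library. CD43+ckit- cells lay below CD43-ckit- cells in every library (-2.58 ± 1.37, adjusted p = 0.142), and the difference passed without CD43++ckit+ library 3 (-2.57, adjusted p = 0.00371), in a fit of these 2 populations alone (-2.63, adjusted p = 0.00599) and with blocks (-2.66, adjusted p = 3.65e-42).

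Cebpg, a widely expressed C/EBP without a strong activation domain that pairs with other family members, had the narrowest range of the 9. It had 54.5, 56.0 and 41.4 CPM for CD43++ckit+, 52.4, 38.1 and 42.0 CPM for CD43+ckit-, and 63.2, 47.2 and 39.7 CPM for CD43-ckit- libraries, so all 3 populations overlapped. Differences were 0.20 ± 0.20 (log2, SE) between CD43++ckit+ and CD43+ckit- cells, 0.02 ± 0.21 between CD43++ckit+ and CD43-ckit- cells and -0.18 ± 0.21 between CD43+ckit- and CD43-ckit- cells (edgeR adjusted p from 0.471 to 0.942). The values depend on scaling: with library totals the 3 values were 0.46, 0.95 and 0.49 (adjusted p = 0.0338, 0.000305 and 0.0163), the last turning sign. Its neighbour Cebpa spanned a ratio of 31.5 between libraries, against 1.66 for Cebpg.

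Gfi1 had the lowest single value of the 9. It stood at 1.02, 0.109 and 12.5 CPM for CD43++ckit+ (40, 4 and 561 reads), at 2.02, 2.28 and 1.86 CPM for CD43+ckit-, and at 11.2, 15.7 and 15.6 CPM for CD43-ckit- libraries. CD43++ckit+ library 3 lay among the CD43-ckit- libraries, and its other 2 libraries lay below all CD43+ckit- libraries, which were tight. CD43++ckit+ cells gave 1.15 ± 1.17 (log2, SE; edgeR adjusted p = 0.484) against CD43+ckit- cells, and -1.83 (adjusted p = 0.0403) without library 3. CD43++ckit+ against CD43-ckit- cells gave -1.63 ± 1.17 (adjusted p = 0.236), and -4.61 (adjusted p = 0.000366) without it. CD43+ckit- cells lay below CD43-ckit- cells in every library (-2.79 ± 1.23, adjusted p = 0.0872). This passed without CD43++ckit+ library 2 or 3 (adjusted p = 0.0143 and 0.00227), in a fit of these 2 populations alone (0.000195) and with blocks (-2.83, adjusted p = 2.37e-27).

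Gfi1b, the paralogue that acts in red cells and megakaryocytes, was far above Gfi1 in counts in every library. It had 193.9 ± 12.4 CPM for CD43++ckit+, 309.8 ± 68.7 CPM for CD43+ckit- and 257.9 ± 50.8 CPM for CD43-ckit- cells (SD, n = 3). Gfi1b was lower in CD43++ckit+ cells than in CD43+ckit- cells (-0.68 ± 0.19, log2 with SE, edgeR adjusted p = 0.0205). Library totals ended that call (adjusted p = 0.0525), as did leaving out CD43++ckit+ library 1 or 2 or CD43+ckit- library 1 (adjusted p from 0.0569 to 0.0767). Against CD43-ckit- cells CD43++ckit+ cells gave -0.41 (adjusted p = 0.0816), which library totals turned to 0.53 (adjusted p = 0.00818). It passed as lower with DESeq2 size factors (-0.65, adjusted p = 0.0119), a strict low-count filter (-0.54, 0.0305), DESeq2 (-0.62, 0.00355) and a fit of the 2 populations alone (-0.50, 0.0421). The log2 ratio of Gfi1 to Gfi1b counts was -7.60, -10.51 and -4.00 for CD43++ckit+, -7.55, -7.04 and -7.03 for CD43+ckit-, and -4.81, -3.93 and -3.81 for CD43-ckit- libraries. Gfi1 thus had its smallest share beside Gfi1b in CD43++ckit+ library 2, and library 3 of that population lay with CD43-ckit- cells. The difference between CD43+ckit- and CD43-ckit- cells was -3.03 (2-sided exact permutation p = 0.1, the smallest possible).

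Irf8, the factor of monocytes and dendritic cells, had 3.99, 1.12 and 17.3 CPM for CD43++ckit+, 10.8, 21.3 and 18.01 CPM for CD43+ckit-, and 33.2, 57.9 and 66.8 CPM for CD43-ckit- libraries. The CD43-ckit- libraries were the 3 highest, and CD43++ckit+ library 3 lay within the CD43+ckit- range. Irf8 was the 1 factor of the 6 variable ones with a call in the joint test (edgeR adjusted p = 0.0334). It was lower in CD43++ckit+ cells than in CD43-ckit- cells (-2.81 ± 0.85, log2 with SE, adjusted p = 0.0181), and by more without CD43++ckit+ library 3 (-4.34, adjusted p = 0.000236). The call was lost without CD43++ckit+ library 1 (adjusted p = 0.0619), with library totals (0.0715), with no low-count filter (0.0519) and in a fit of the 2 populations alone (0.0522). CD43++ckit+ against CD43+ckit- cells gave -1.15 ± 0.81 (adjusted p = 0.300), and -2.70 (adjusted p = 0.00455) without library 3. CD43+ckit- against CD43-ckit- cells gave -1.66 ± 0.81 (adjusted p = 0.117), which passed without CD43++ckit+ library 2 or 3 (0.0299 and 0.0113), in a fit of these 2 populations (0.00478) and with blocks (-1.71, adjusted p = 1.98e-20). The joint call of Irf8 was lost without library 1 of CD43++ckit+, any one CD43+ckit- library or library 2 or 3 of CD43-ckit-, with adjusted p between 0.0525 and 0.0857.

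Per kilobase of exon, where levels of different genes can be compared, Spi1 was followed in CD43-ckit- cells by Cebpe (41.6 ± 19.3 CPM per kb, SD, n = 3) and Cebpb (24.2 ± 13.2), and the ranges of these 2 overlapped. The remaining 6 lay between 4.45 (Gfi1) and 8.90 (Cebpg) CPM per kb there. In CD43++ckit+ cells Fli1 (12.8 ± 2.06) and Cebpg (9.01 ± 1.43) came after Spi1 with little spread, while Cebpe averaged 12.9 ± 20.8, a mean set by library 3. In CD43+ckit- cells Cebpg (7.86 ± 1.31), Cebpb (7.77 ± 5.44) and Cebpe (6.94 ± 3.77) lay within their spread of one another, and Gfi1 was lowest (0.644 ± 0.0668). Exon lengths come from GENCODE vM21 and may differ from the annotation behind the counts.

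Cebpa, Cebpb, Cebpd, Cebpe and Irf8 were lowest in CD43++ckit+ library 2, which had the lowest neutrophil marker sum, and highest in CD43-ckit- libraries 2 and 3, which had the highest sums. Gfi1 shared these extremes but not the order between them. In CD43+ckit- libraries, where the sum was 495.0, 3774 and 3015 CPM, Gfi1 stayed between 1.86 and 2.28 CPM, and it stood at 11.2 CPM in CD43-ckit- library 1, whose sum was 3890 CPM. Expressed as counts per 1000 neutrophil marker counts, a ratio chosen after the values were seen, Cebpd was 3.36, 3.11 and 2.10 for CD43++ckit+, 2.45, 2.40 and 2.01 for CD43+ckit-, and 1.76, 1.73 and 1.75 for CD43-ckit- libraries. Cebpd thus spanned a ratio of 1.94 over the 9 libraries on this scale, against 101.6 in CPM. Cebpe spanned 3.16, against 117.4 in CPM, with 4.64, 5.95 and 7.47 per 1000 for CD43++ckit+, 8.49, 3.58 and 2.69 for CD43+ckit-, and 6.18, 4.01 and 3.63 for CD43-ckit- libraries. Cebpa, Gfi1, Irf8 and Cebpb spanned 6.13 to 7.96, and Cebpa was highest in CD43++ckit+ library 2 (8.21 per 1000), where its CPM was lowest. Spi1, Cebpg and Fli1 spanned 58.2, 254.5 and 359.2 on this scale. Their wide spans follow from the division, because their CPM varied less than the marker sum, which ranged from 96.6 to 17440 CPM.

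**Figure D3:**
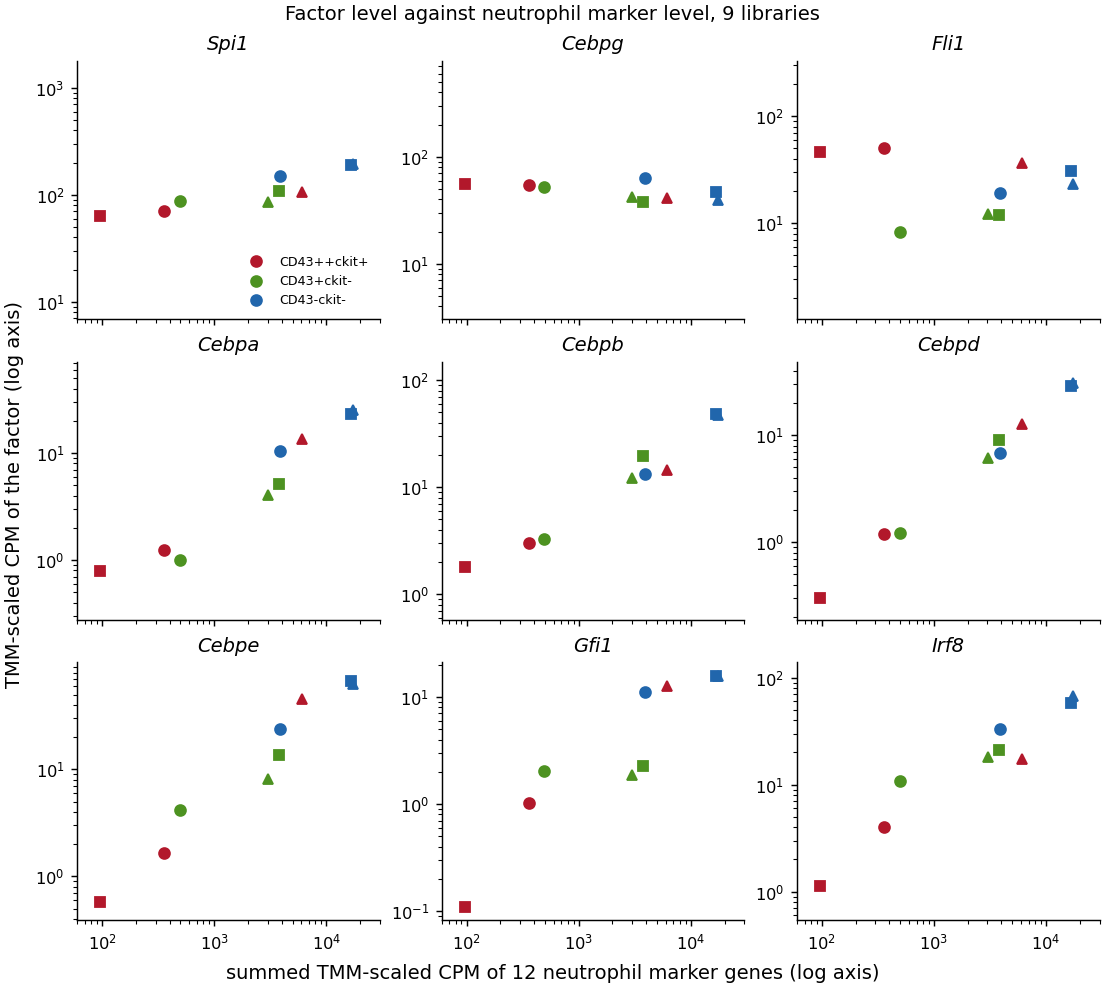
TMM-scaled CPM of each factor against the summed CPM of 12 neutrophil marker genes, both on log axes, 1 point per library, with the same vertical span in each panel on the log scale. Cebpa, Cebpb, Cebpd, Cebpe and Irf8 climb with the marker sum, Gfi1 is flat over the CD43+ckit- libraries, and Spi1 climbs little. Within each population Cebpg falls as the marker sum rises, and Fli1 keeps no such order.

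Markers of other cell types were summed in the same way. The 4 primary granule genes summed to 69.4, 20.1 and 1045 CPM for CD43++ckit+, 101.8, 196.0 and 127.5 CPM for CD43+ckit-, and 926.1, 1449 and 1515 CPM for CD43-ckit- libraries. All 12 monocyte and macrophage markers were above 0 in every library and summed to 20.5 to 194.8 CPM for CD43++ckit+, 30.6 to 105.2 CPM for CD43+ckit- and 251.9 to 442.0 CPM for CD43-ckit- cells. The 7 B-lineage markers, also above 0 throughout, summed to 6.81, 3.47 and 22.9 CPM for CD43++ckit+, 13.5, 40.8 and 27.6 CPM for CD43+ckit-, and 210.2, 78.5 and 99.5 CPM for CD43-ckit- libraries. The highest B-lineage sum was in CD43-ckit- library 1, where the 6 variable factors were the lowest of that population. The part of these cells in the values of the 9 factors was not tested. The 8 T and NK cell markers, 3 of them above 0 in every library, summed to 4.98 to 24.1 CPM for CD43++ckit+, 29.0 to 33.7 CPM for CD43+ckit- and 28.1 to 45.6 CPM for CD43-ckit- cells. Lck alone made up most of the CD43+ckit- sums (28.4, 27.3 and 23.5 CPM). Mast cell and basophil markers summed to 1398, 1171 and 741.8 CPM for CD43++ckit+, 498.0, 533.5 and 458.3 CPM for CD43+ckit-, and 1400, 1217 and 1100 CPM for CD43-ckit- libraries. Different genes made up these sums. Gata2 gave most of the CD43-ckit- sums (1262, 902.4 and 789.6 CPM). Hdc (670.1, 567.1 and 399.8 CPM) and Ms4a2 (392.3, 351.3 and 139.8 CPM) gave most of the CD43++ckit+ sums. Ms4a2 stood at only 21.5 to 44.2 CPM in CD43-ckit- libraries. Within CD43++ckit+ the mast cell and basophil sum was lowest in library 3, where the 6 variable factors were highest. Ms4a2, Fcer1a, Hdc and Gata2 were lowest there. Mcpt8 and Prss34 were highest there (3.68 and 13.5 CPM), and Cpa3 lay between. Megakaryocyte markers, 3 of 6 above 0 in every library, summed to 7.47 to 11.01 CPM for CD43++ckit+, 32.5 to 41.6 CPM for CD43+ckit- and 42.2 to 64.7 CPM for CD43-ckit- cells.

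Ratios between other pairs of factors were also compared, and none passed after adjustment (adjusted permutation p of 0.257 or more). The log2 ratio of Cebpb to Cebpa counts was 1.26, 1.17 and 0.08 for CD43++ckit+, 1.69, 1.93 and 1.58 for CD43+ckit-, and 0.35, 1.05 and 0.93 for CD43-ckit- libraries. The CD43+ckit- libraries were the 3 highest, by 0.96 on average over CD43-ckit- cells (2-sided exact permutation p = 0.1), and CD43++ckit+ cells lay below CD43+ckit- cells (difference -0.90, exact permutation p = 0.1). CD43++ckit+ against CD43-ckit- cells gave 0.06 (exact permutation p = 0.9). Cebpe to Cebpa gave no such separation (exact permutation p from 0.3 to 0.8). The ratio of Spi1 to Cebpa was 5.80, 6.29 and 2.96 for CD43++ckit+, 6.43, 4.41 and 4.41 for CD43+ckit-, and 3.82, 3.04 and 2.97 for CD43-ckit- libraries, higher in each CD43+ckit- than in each CD43-ckit- library (difference 1.81, exact permutation p = 0.1). Gfi1 to Irf8 was lower in each CD43+ckit- than in each CD43-ckit- library (-1.12, exact permutation p = 0.1).

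**Figure D4:**
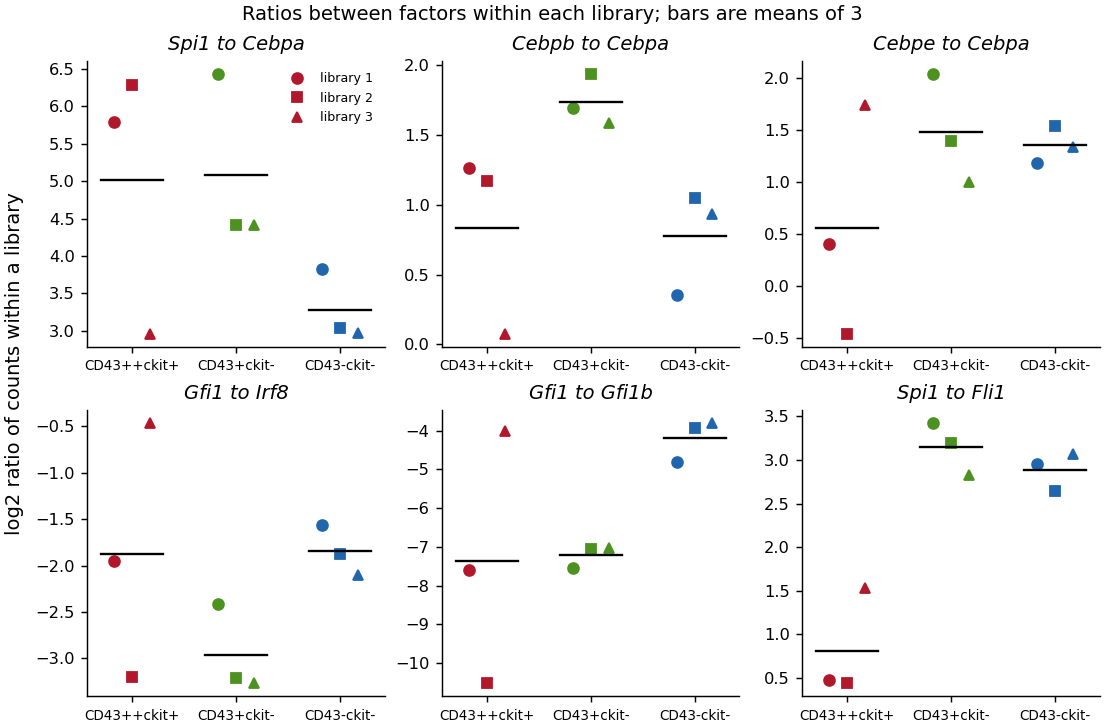
Log2 ratios of counts between pairs of factors within each library (0.5 added to each count), with bars at the mean of 3 libraries per population. For Spi1 to Fli1 the 3 CD43++ckit+ libraries (0.44 to 1.53) lie below the other 6 (2.64 to 3.42), and for Gfi1 to Gfi1b CD43++ckit+ library 3 lies apart from libraries 1 and 2.

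The genes whose log2 CPM followed each factor most closely over the 9 libraries, among 8343 well-expressed genes, are given as a description. Cebpd ran with Hp, Lcn2 and Pglyrp1, secreted proteins of neutrophils (Pearson r of 0.998 each). Gfi1 ran with Mpo, Elane (primary granule enzymes) and Epx (eosinophil peroxidase) at 0.988, 0.988 and 0.983. Cebpa was closest to Napsa, Plxnd1 and Tnfrsf1b (0.995, 0.994 and 0.993), Cebpb to Fosl2 and Ccl6 (0.996 each), and Cebpe to Ear1, Hsd11b1 and Abhd5 (0.997, 0.995 and 0.994). Irf8 was closest to Thbs1, Pld4 and Dok3 (0.989, 0.988 and 0.986). Fli1 was closest to Cbfb, which encodes the binding partner of RUNX1, at 0.995, then to Ano6 and Tes (0.988 and 0.987). Spi1 was closest to Mapkapk2, G6pdx and Rogdi (0.989, 0.987 and 0.986), and Cebpg to N4bp2l2, Acbd3 and Gigyf2 (0.986, 0.977 and 0.971).

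Relatives, partners and target genes of the 9 factors were counted by list. The counts stand beside the shares of all tested genes called higher and lower. These were 19.7% and 20.1% in CD43++ckit+ against CD43+ckit- cells, and 39.7% and 27.7% in CD43++ckit+ against CD43-ckit- cells. They were 31.0% and 20.9% in CD43+ckit- against CD43-ckit- cells. With library totals the shares were 27.9% and 13.8%, 61.4% and 13.3%, and 54.6% and 9.47%. Without CD43++ckit+ library 3, 46.3%, 74.5% and 61.0% of all genes were called in either direction. Of 11 bZIP relatives and TRIB regulators, 2 were higher and 5 lower in CD43++ckit+ cells than in CD43+ckit- cells, 1 higher and 8 lower than in CD43-ckit- cells, and 6 were lower in CD43+ckit- cells than in CD43-ckit- cells. Atf5, Atf4 and Ddit3, factors of the amino acid and unfolded protein stress response, were lowest in CD43++ckit+ and highest in CD43-ckit- cells. Atf5 averaged 17.5 ± 1.41 CPM for CD43++ckit+, 50.8 ± 7.21 CPM for CD43+ckit- and 510.2 ± 103.2 CPM for CD43-ckit- cells (SD, n = 3), with a log2 fold change of -4.87 in CD43++ckit+ and -3.33 in CD43+ckit- against CD43-ckit- cells (edgeR adjusted p = 1.40e-06 and 2.25e-05). The list's median was -2.79 in CD43++ckit+ against CD43-ckit- cells, beside 0.19 for all tested genes.

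Of 14 other ETS factors, 3 were higher in CD43++ckit+ cells than in CD43+ckit- cells. Against CD43-ckit- cells 2 were higher and 6 lower in CD43++ckit+, and 8 were lower in CD43+ckit-. With library totals these last 2 splits became 6 higher and 2 lower, and 3 higher and 3 lower. Ets1, a lymphoid ETS factor, shared the Fli1 order between CD43++ckit+ (45.5 ± 7.01 CPM) and CD43+ckit- cells (22.7 ± 5.33 CPM; SD, n = 3; log2 fold change 1.01, edgeR adjusted p = 0.00330). Of 8 other IRF factors, 1 was higher and 4 lower in CD43++ckit+ cells than in CD43+ckit- cells, 1 higher and 6 lower than in CD43-ckit- cells, and 1 was higher and 5 lower in CD43+ckit- cells than in CD43-ckit- cells. The last became 2 higher and 0 lower with library totals, and DESeq2 called 0 higher and 6 lower. Irf7, a regulator of the interferon response, was lower in CD43++ckit+ cells than in CD43+ckit- cells (-3.09, adjusted p = 0.000788) and than in CD43-ckit- cells (-4.10, adjusted p = 6.60e-05). Of 12 genes for the GFI1 paralogue and corepressors, 3 were higher and 2 lower in CD43++ckit+ cells than in CD43+ckit- cells, and 6 higher and 2 lower than in CD43-ckit- cells, while 4 were higher in CD43+ckit- cells than in CD43-ckit- cells. The 4 of 12 lie near the 31.0% of all genes called higher there. Library totals gave 9 higher and 0 lower against CD43-ckit- cells in both of these populations. Of all tested genes 61.4% and 54.6% were then called higher. Hdac1, Hdac2 and Hdac3, deacetylases that corepressor complexes recruit, were higher in CD43++ckit+ cells than in CD43-ckit- cells by 0.79, 1.83 and 0.71 (adjusted p = 0.000171, 7.10e-05 and 0.000355).

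Target genes were counted in the same way. Of 17 C/EBP target genes of granulocytes, edgeR called 0 in CD43++ckit+ against CD43+ckit- cells, with 0 at an unadjusted p under 0.05 and 0 by DESeq2. Against CD43-ckit- cells 1 was lower in CD43++ckit+ (Il6ra, the interleukin 6 receptor) and 2 in CD43+ckit- (the granule proteases Ctsg and Prtn3). Without CD43++ckit+ library 3, 16, 17 and 14 of the 17 were lower in these 3 comparisons, and with same-numbered libraries as blocks 17 were lower in CD43+ckit- cells than in CD43-ckit- cells. Of all tested genes 46.3%, 74.5% and 61.0% were called in either direction without that library, and 67.2% with the blocks. Of the 17 C/EBP target genes, 13 are also among the neutrophil or primary granule markers. Il6ra gave -2.26 (edgeR adjusted p = 0.0436), a call lost without 7 of the single libraries in turn. Ctsg (-3.31, adjusted p = 0.0454) and Prtn3 (-3.11, adjusted p = 0.0499) lost theirs with library totals (0.0673 and 0.0771), with no low-count filter (0.107 and 0.116), with blocks over all 9 libraries (0.0625 and 0.0660) and without any single CD43+ckit- or CD43-ckit- library. Of 16 PU.1 target genes, 1 was higher in CD43++ckit+ cells than in CD43+ckit- cells, 1 higher and 4 lower than in CD43-ckit- cells, and 1 was higher and 5 lower in CD43+ckit- cells than in CD43-ckit- cells. Library totals gave 3 higher and 1 lower in CD43++ckit+ against CD43-ckit- cells, and 1 higher and 1 lower in CD43+ckit- against CD43-ckit- cells. Without CD43++ckit+ library 3 the lower counts were 5, 11 and 14. The 1 higher was Btk, a kinase of B cell and myeloid receptors (log2 fold change 0.96 over CD43+ckit- cells and 1.70 over CD43-ckit- cells, adjusted p = 0.00739 and 0.000180). In CD43+ckit- against CD43-ckit- cells Btk gave 0.74 (adjusted p = 0.0193), which DESeq2 size factors (0.0632) and the omission of CD43+ckit- library 3 (0.0639) or CD43-ckit- library 1 (0.0552) brought above the threshold.

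Of 9 tested IRF8 monocyte and dendritic cell genes, 1 was lower in CD43++ckit+ cells than in CD43+ckit- cells and 6 than in CD43-ckit- cells, and 5 were lower in CD43+ckit- cells than in CD43-ckit- cells. With library totals the last 2 splits became 1 higher and 1 lower, and 0 called. Zbtb46, listed as a dendritic cell factor, was lower in CD43++ckit+ cells than in CD43-ckit- cells (-2.40, edgeR adjusted p = 7.72e-05). It averaged 14.5 CPM for CD43++ckit+, 41.5 CPM for CD43+ckit- and 76.8 CPM for CD43-ckit- cells, the order of the erythroid marker sums. Within CD43++ckit+ it stayed between 14.1 and 14.9 CPM, while Irf8 spanned a ratio of 15.4 there. Which cells its transcript came from was not tested. FLI1 target genes of megakaryocytes did not move as 1 group, and 7 of 11 were tested. In CD43++ckit+ cells, where Fli1 was highest, 1 was higher and 3 lower than in CD43+ckit- cells, and 3 higher and 3 lower than in CD43-ckit- cells. CD43+ckit- against CD43-ckit- cells gave 4 higher and 2 lower. Itga2b, the platelet integrin subunit, averaged 6.42 ± 0.690 CPM for CD43++ckit+, 19.3 ± 1.46 CPM for CD43+ckit- and 41.2 ± 11.3 CPM for CD43-ckit- cells (SD, n = 3), lower in CD43++ckit+ cells in both comparisons (-1.59 and -2.68, adjusted p = 0.000617 and 1.07e-05). Gp1ba, a subunit of the platelet receptor for von Willebrand factor, was higher in CD43++ckit+ cells than in CD43-ckit- cells (1.66, adjusted p = 9.99e-05). Gp5, another subunit of that receptor complex, averaged 191.4 ± 23.6 CPM for CD43++ckit+, 114.6 ± 26.2 CPM for CD43+ckit- and 38.6 ± 19.1 CPM for CD43-ckit- cells (SD, n = 3), and was higher in CD43++ckit+ cells than in CD43-ckit- cells (2.31, adjusted p = 0.000563).

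**Figure D5:**
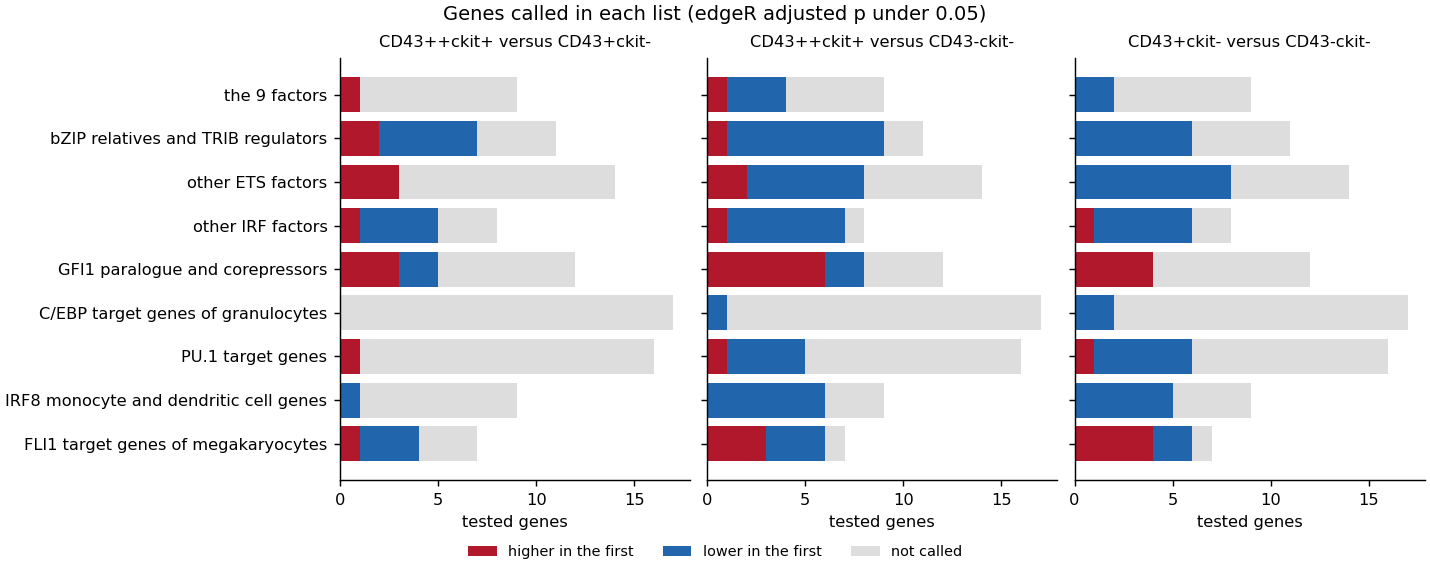
Number of tested genes in each list called higher (red) or lower (blue) in the first-named population, or not called (grey), by edgeR at an adjusted p under 0.05, for the 3 comparisons. The 17 C/EBP target genes are almost all grey, and the FLI1 target genes split between red and blue.

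Strand handling of the counts is not stated, so reads of overlapping genes cannot be told apart. In GENCODE vM21, opposite-strand exons of Tmem189 covered 312 of 1504 exonic bases of Cebpb, and those of Spidr 562 of 3746 of Cebpd. For Cebpa, Cebpg and Gfi1 other genes' exons covered 0.1% to 3.2% each, and for Spi1, Cebpe, Irf8 and Fli1 none was found.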

How the data were processed

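Deposited whole-number read counts per gene symbol were used for 9 libraries, 3 per population. Libraries came from Trizol-extracted total RNA with a TruSeq kit, per the labels' protocols. Per the submitters' processing notes the tools were edgeR, HTSeq, RSEM, TopHat2 2.0.4 and CASAVA 1.8, listed with no role, while the series' design text names BWA and Cufflinks. Those notes give a human build although the symbols are mouse. Which build, annotation and strand setting the deposited counts rest on is therefore not given in the sources used here.

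The test was edgeR 4.0.16 under R 4.3.3. Genes passing filterByExpr (minimum count 10, minimum total 15) numbered 12573 of 24391, of which 6162 had 0 counts throughout. They were scaled by TMM (factors 0.589 to 1.41) and fitted with 3 population means over all 9 libraries (estimateDisp, robust glmQLFit, glmQLFTest), with Benjamini-Hochberg adjustment over all tested genes. Standard errors are the log2 fold change divided by the square root of F. The steps were tested on simulated counts. Ratios between genes used counts plus 0.5 and 2-sided exact permutation tests (SciPy 1.17.1). Promoters are RefSeq entries on GRCm38.p6 and exon lengths are from GENCODE vM21. No libraries held identical values. Intervals are not given, and low counts such as 4 reads limit precision by counting error.

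The genes, lists and tests were chosen with earlier results of these data known. Named genes are the 9 factors, the 4 members of each list of smallest joint adjusted p (average log2 CPM 1 or more), Gfi1b, markers, and for each factor the 3 most correlated genes of average log2 CPM at least 3 (prior count 2, predicted genes left out), of which 1 is not reported here.

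Replicate numbers come from the titles of the samples. For CD43+ckit- with CD43-ckit- cells, deviations from the population means correlated by 0.525, 0.366 and 0.303 for libraries 1, 2 and 3, above the 0.1 asked for pairing, and library 1 was the one that stood apart in both. Libraries 2 and 3 correlated as much across numbers (0.343 and 0.349), so the numbers set library 1 apart and do not tell 2 from 3. Library 1 also had the lowest neutrophil marker sum in both populations, and whether the numbers mark a shared origin was not tested. CD43++ckit+ libraries did not pair with CD43+ckit- (0.447, -0.617 and 0.382) or CD43-ckit- libraries (0.262, -0.318 and 0.252). The blocked fit of CD43+ckit- and CD43-ckit- cells has 2 residual degrees of freedom and leans on the spread of all genes. Alternatives were other scalings, filters, DESeq2 1.42.0, blocks, fits of 2 populations and fits without single libraries.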

Additional observations from a re-analysis of the deposited data

How the results depend on the processing

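With the 3 comparisons in the order CD43++ckit+ against CD43+ckit-, CD43++ckit+ against CD43-ckit- and CD43+ckit- against CD43-ckit-, the factors called were 1, 4 and 2, and 3 in the joint test. Of all tested genes 39.8%, 67.4% and 51.9% were called, and 74.8% jointly. Library totals gave 2, 2 and 1, beside 41.7%, 74.7% and 64.1% of all genes. No low-count filter gave 2 in the second comparison. The share of all genes without that filter, and in joint tests under alternatives, is not given here. A fit of the 2 populations without block gave 2 in the second and 6 in the third, beside 63.5% and 54.1% of all genes. The replicate block gave 8 in the third when fitted to its 2 populations, and 5 in the joint test over all libraries; it changed no count of factors by more than 1.5 times elsewhere, where the numbers do not pair. When each population lost its least correlated library, 8, 9 and 7 were called, and 9 jointly. Leaving out single libraries gave 1 to 7, 2 to 8, 2 to 7 and, jointly, 2 to 8. Over all tested genes single omissions gave 3493 to 5919, 7366 to 9534 and 5080 to 7800 calls in the 3 comparisons. Of 94 tested list genes 26, 50 and 43 were called, where 39.8%, 67.4% and 51.9% of all tested genes were. Single omissions gave 21 to 56, 37 to 77 and 24 to 71 list genes. Without the least correlated libraries 72, 83 and 70 list genes were called, where 67.6%, 81.9% and 70.2% of all genes were. Over all genes 8557 were then called in the first comparison, against 5005. In the third comparison library totals gave 28 list genes, the 2-population fit 70 and its replicate block 76. The shares of all genes there were 64.1%, 54.1% and 67.2%. Turned signs are listed where the main fit or the alternative made a call. Uncalled values changed sign too, as for Cebpd in the first comparison and Cebpg in the second. Signs turned in the first comparison for Cebpa (-2.15) and Cebpe (-3.25) without the least correlated libraries. They also turned there for Cebpe (-2.93), Gfi1 (-1.83 to 1.72 over single omissions), Ctsg (-1.50 to 1.86), Prtn3 (-1.42 to 1.89) and Mpo (-1.75 to 1.96), their lowest values being without CD43++ckit+ library 3. With library totals they turned in the second for Gfi1b (0.53), Ets1 (0.68) and Laptm5 (0.41), and in the third for Cebpg (0.49), Irf2 (0.21) and Laptm5 (0.0735). The causes were not tested. Of 480 results for the 9 factors under single alternatives, 393 kept direction and call. The number of libraries per population limits precision.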
